A study of Rattus norvegicus with 4 samples.

Results

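Genes of the extracellular matrix and of the proteases that act on it were followed in serum-starved and serum-stimulated Rat1 cells, a permanently growing rat fibroblast line. Members were all probe sets with 1 gene symbol in the annotation of the Affymetrix rat genome array whose symbol names a collagen, a laminin chain, a matrix metalloproteinase (Mmp), a tissue inhibitor of metalloproteinases (Timp), or one of 16 further matrix genes. The rule gave 76 probe sets of 49 genes, out of 7006 probe sets of 4736 genes with 1 symbol, and Thbs1, Thbs2 and Fbn1 of the rule had no such probe set. Rat1-control cells carried the empty retrovirus, and Rat1-Omomer cells a retrovirus for Omomer, the Myc inhibitor Omomyc fused to the part of the estrogen receptor that 4-OHT (hydroxytamoxifen) switches on. Both were starved for 48 h in 0.1% serum and harvested at 0 min, when serum was given back, or after 90 min of 10% serum. All 4 cultures received 4-OHT, through the starvation according to the labels and from a few hours before serum according to the methods, and no culture without 4-OHT was among them. Each condition is 1 array of 1 infected cell population, which leaves no spread between cultures to judge a difference by, and no test was possible. For Rat1-Omomer at 0 min and Rat1-control at 90 min, 1 label field names the other vector, while title, source and description name the line used here, and these were followed. If that field were right, both 0 min arrays would be control cells and both 90 min arrays Omomer cells, and neither a serum response within a line nor a difference between lines at 1 time could be read from them. Which label is right was not tested.

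The matrix of fibroblasts is built around fibrillar collagens, whose chains are hydroxylated, folded into triple helices, secreted, trimmed and crosslinked. Glycoproteins such as fibronectin and tenascin C tie this scaffold to cell surface receptors, and small proteoglycans bind to its fibrils. Metalloproteinases cleave these proteins outside the cell and are held in check by Timps. Serum on starved fibroblasts is a classical model of the early wound response, in which matrix genes take part.

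Values are average differences in arbitrary units, in which MAS 4 takes the signal of mismatch probes from that of perfect match probes, with nearly the same trimmed mean on every array. They compare 1 probe set between arrays, not genes with each other. A floor of 1048, 2 times a noise SD that was derived from the negative values, was put under all values before ratios were taken, so that folds with 1 value at the floor are lower bounds. Where both values of a comparison were under it there is no fold, and a probe set was called at 3-fold, the threshold of the methods. The brightest values differed between arrays, with a 99th percentile between 43961 and 54800.4 on the first 3 arrays and of 72057 for Rat1-Omomer at 90 min. Folds of some bright probe sets are therefore also given after quantile normalization, which makes the 4 distributions equal. Where none is given, as for Mmp14, Lox and Fn1 at 90 min, a fold of bright values may change with it. Of 11 fibroblast markers, 10 were above the floor on all 4 arrays by at least 1 probe set, and of 13 markers of epithelial, endothelial, blood and muscle cells on the array none was. A Cd74 probe set (815 to 1659) was above it on 3 arrays and a Ptprc probe set (1040 to 1097) on 2, both leukocyte markers, while their other 5 probe sets were below 0 on all arrays. Myc itself went from 1172 to 4980 in Rat1-control and from 2307 to 7233 in Rat1-Omomer cells by 1 probe set, and from 222 to 1171 and from 534 to 159 by the other.

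Of the 76 probe sets, 42 lay above the floor on all 4 arrays and 23 on none. These 42 measure 26 genes, 6 more genes were above the floor on 1 to 3 arrays only, and 17 genes were under it everywhere. The genes under the floor were Col2a1, Col4a3, Col9a1 and Col15a1, the laminin chains Lama1, Lama2, Lama3 and Lama5, the proteoglycans Dcn and Lum, the elastin gene Eln, and Mmp3, Mmp8, Mmp10, Mmp12, Mmp16 and Mmp23. Decorin, a major small proteoglycan of connective tissue, was thus not detected by any of its 4 probe sets, the highest value being 447. Being under the floor does not show that a gene is silent, since a probe set may respond poorly.

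**Figure D1:**
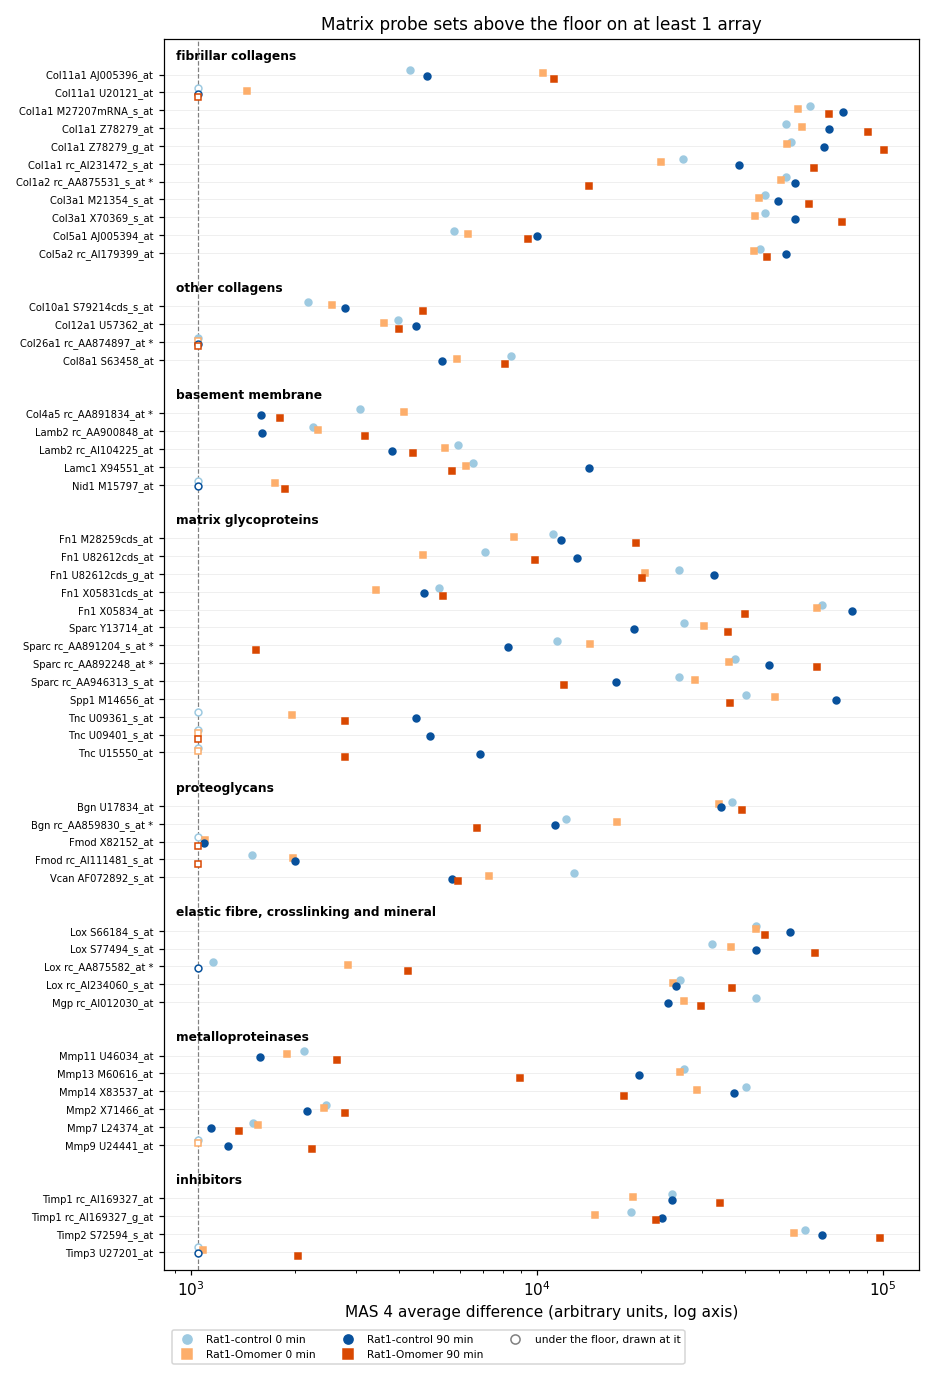
Average difference on the 4 arrays (log axis, arbitrary units) of the 53 matrix probe sets above the floor on at least 1 array, grouped by role, with 1 point per array (circles, Rat1-control; squares, Rat1-Omomer; light, 0 min; dark, 90 min). The dashed line is the floor of 1048, open symbols are values under it, and an asterisk marks the 5 EST series; for Tnc the dark circles, 4482 to 6840, lie right of all other points of their rows, and for Sparc and Col1a2 single dark squares lie far to the left.

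Few matrix probe sets passed 3-fold in any comparison. In Rat1-control cells at 90 min against 0 min, 3 of 50 with a fold were higher, all of them for Tnc, and 0 were lower, against a background of 1.93% and 1.81% of all 3985 probe sets with a fold. In Rat1-Omomer cells at 90 min against their own 0 min, 0 of 51 were higher and 2 lower, against 2.9% and 9.65% of 4209. At 0 min, 0 of 50 differed between the cell lines in either direction, against 0.251% higher and 0.503% lower among 3977. At 90 min, 1 of 51 was higher and 3 were lower in Rat1-Omomer than in Rat1-control cells, against 2.22% and 8.57% of 4048. With Rat1-control cells at 0 min as reference, as in the methods, 1 of 50 was higher and 2 were lower in Rat1-Omomer cells at 90 min, against 2.8% and 9.95% of 4220. The counts of lower probe sets in Rat1-Omomer cells at 90 min thus lay under the background, and calls of 1 to 3 probe sets are too few to set the members apart from it. The median log2 fold of the members was 0.14 for serum in Rat1-control cells (all probe sets -0.07), 0.22 for serum in Rat1-Omomer cells (all 0.09), -0.04 between the lines at 0 min (all 0.01) and 0.19 between them at 90 min (all 0.18). After quantile normalization these were 0.02, 0.10, 0.00 and 0.07, against -0.02, 0.15, 0.01 and 0.17 for all probe sets.

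Tnc encodes tenascin C, a glycoprotein of healing wounds and tumor stroma that loosens the attachment of cells to fibronectin. By the probe set U15550_at the starved cultures had 885 (Rat1-control) and 761 (Rat1-Omomer), and the serum-treated ones 6840 and 2783. By U09361_s_at they were 710 and 1950 at 0 min, and 4482 and 2788 at 90 min. By U09401_s_at they were 143 and -51 at 0 min, and 4892 and 468 at 90 min. All 3 probe sets were under the floor in starved Rat1-control cells and highest on the Rat1-control 90 min array. The fold in Rat1-control cells was at least 6.53, 4.28 and 4.67. With Omomer it was at least 2.66 by U15550_at and 1.43 by U09361_s_at, and U09401_s_at was under the floor at both times. Between the lines at 90 min Tnc was 2.46-fold, 1.61-fold and at least 4.67-fold lower where Omomer was present, in the same order, and only U09401_s_at met 3-fold (at least 3.99 with the floor of each array). The difference between the 2 serum responses could not be tested with 1 array each. In RNA of a whole culture, more cells that express a gene and more RNA per cell cannot be told apart.

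The sequence before the start of Tnc is shown because Tnc had the highest serum fold of the members, as the 250 bases upstream of its RefSeq start (GRCr8, chr5:82476132-82476381, minus strand, written 5′ to 3′ along the gene). It holds neither of the 2 motifs searched on both strands, TGAGTCA of the AP-1 factors that serum induces and CACGTG, the E-box of Myc and Max, so that no letter is in capitals.
Tnc: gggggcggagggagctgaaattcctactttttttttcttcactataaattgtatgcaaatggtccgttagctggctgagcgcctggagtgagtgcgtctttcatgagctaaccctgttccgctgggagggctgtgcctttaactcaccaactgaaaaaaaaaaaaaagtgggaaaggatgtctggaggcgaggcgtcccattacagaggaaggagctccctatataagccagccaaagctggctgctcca
The absence of these letters says nothing about AP-1 or Myc at other sequences of the gene.

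Spp1 and Lamc1 were, as Tnc was, highest on the Rat1-control 90 min array, and unlike Tnc slightly lower after serum in Rat1-Omomer cells. This was not particular to them, since Col5a1 and Col5a2, among others, were also highest on that array. So were Col1a2 and Fn1 by X05834_at, which were lower after serum in Rat1-Omomer cells too. Spp1 encodes osteopontin, a secreted ligand of integrins. Its values at 0 min were 40309 in Rat1-control cells and 48750 in the Omomer line, and at 90 min 73452 and 36147. The control line was thus 1.82-fold higher and the Omomer line 1.35-fold lower after serum, and at 90 min Spp1 was 2.03-fold lower in Rat1-Omomer cells, 2.29-fold after quantile normalization. Lamc1, the gamma chain shared by most laminins of basement membranes, had 6536 and 6227 at 0 min, and 14124 in Rat1-control cells and 5689 in the Omomer line at 90 min. The Rat1-control 90 min array stood alone, 2.16-fold above 0 min, while the other 3 lay within 5689 to 6536. At 90 min Lamc1 was 2.48-fold lower in Rat1-Omomer cells. Each is measured by 1 probe set, and neither met 3-fold.

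Fn1 encodes fibronectin, the glycoprotein that starts matrix assembly at the cell surface, and its 5 probe sets did not give 1 answer. By the probe set with the highest values, X05834_at, Fn1 was 66614 in starved Rat1-control and 64576 in starved Rat1-Omomer cells, and 81542 and 39902 after serum. This is 2.04-fold lower in Rat1-Omomer than in Rat1-control cells at 90 min. The probe set M28259cds_at gave 11143 and 8585 at 0 min, and 11762 and 19339 at 90 min, 1.64-fold higher in Rat1-Omomer cells. In the order Rat1-control and Rat1-Omomer at 0 min, then at 90 min, U82612cds_g_at gave 25670, 20516, 32577 and 20182. In the same order U82612cds_at, of the same source sequence, gave 7073, 4688, 13018 and 9878, and X05831cds_at gave 5199, 3423, 4698 and 5339. At 90 min these 3 lay between 1.61-fold lower and 1.14-fold higher with Omomer. Without serum all 5 were lower in Rat1-Omomer cells, by 1.03-fold to 1.52-fold, although X05834_at turned to 1.02-fold higher after quantile normalization. Fn1 transcripts are spliced in several forms, and which form each probe set measures was not tested.

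Sparc encodes a collagen-binding glycoprotein of remodeling tissue, and it showed the widest disagreement of the members. The probe set rc_AA891204_s_at was 11459 in starved Rat1-control and 14279 in starved Rat1-Omomer cells, and 8233 and 1538 at 90 min. This is 9.28-fold lower in Rat1-Omomer cells at 90 min than at 0 min, and 5.35-fold lower than in Rat1-control cells. A second, rc_AA892248_at, gave 37377, 35878, 46890 and 64750 in the same order, highest where the first was lowest. The remaining pair gave 26542, 30498, 19065 and 35612 (Y13714_at), and 25688, 28635, 16976 and 12004 (rc_AA946313_s_at). In Rat1-Omomer cells the 4 serum folds thus ran from 9.28-fold lower to 1.80-fold higher. In Rat1-control cells they ran from 1.51-fold lower to 1.25-fold higher. These folds are before quantile normalization, after which the log2 fold of rc_AA891204_s_at in Rat1-Omomer cells was -3.07 instead of -3.21. The 1.80-fold rise rests on a bright value, 64750 on the Rat1-Omomer 90 min array, and is not given here after that normalization. A direction for Sparc after serum in Rat1-Omomer cells cannot be given from these probe sets.

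Both extreme Sparc probe sets belong to the 5 EST series, 1744 probe sets of expressed sequence tags with an ID that begins rc_AA79, rc_AA80, rc_AA85, and so on to rc_AA87 and rc_AA89, a grouping taken over from an earlier look at these data, in which it stood out on the Rat1-Omomer 90 min array. The members hold 9 of them. Of the 48 member probe sets with a fold in both serum responses, 6 are of the EST series, a smaller share than among all probe sets with a fold. The counts of lower member probe sets above were not set against a background of equal share. Only 6 member probe sets were called in any comparison, the 3 of Tnc and 1 each of Sparc, Col1a2 and Lox, and the latter 3 are of the EST series. Their calls all come from comparisons that share the Rat1-Omomer 90 min array and are not independent of each other. Among all probe sets, the EST series made up 55.5% of the calls for serum in Rat1-Omomer cells and 23.0% of the probe sets with a fold, against 20.8% and 24.5% for serum in Rat1-control cells, as a description, since the grouping was picked for that array. The part of the probe set design in these calls was not tested. Among genes measured by at least 2 probe sets with both values above the floor, the SD of the log2 fold within a gene was 0.29 over 8 member genes for serum in Rat1-control cells and 0.94 for serum in Rat1-Omomer cells, against 0.32 over 492 and 0.71 over 443 of all genes. Outside the EST series the members had 0.25 and 0.62. Probe sets of 1 gene thus differed more on comparisons with the Rat1-Omomer 90 min array. For serum in Rat1-Omomer cells, a log2 fold of 1 is about the size of the member SD of 0.94. It is larger than the 0.71 of all genes and the 0.62 of members outside the EST series. Between the lines at 90 min the member SD was 0.78.

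**Figure D2:**
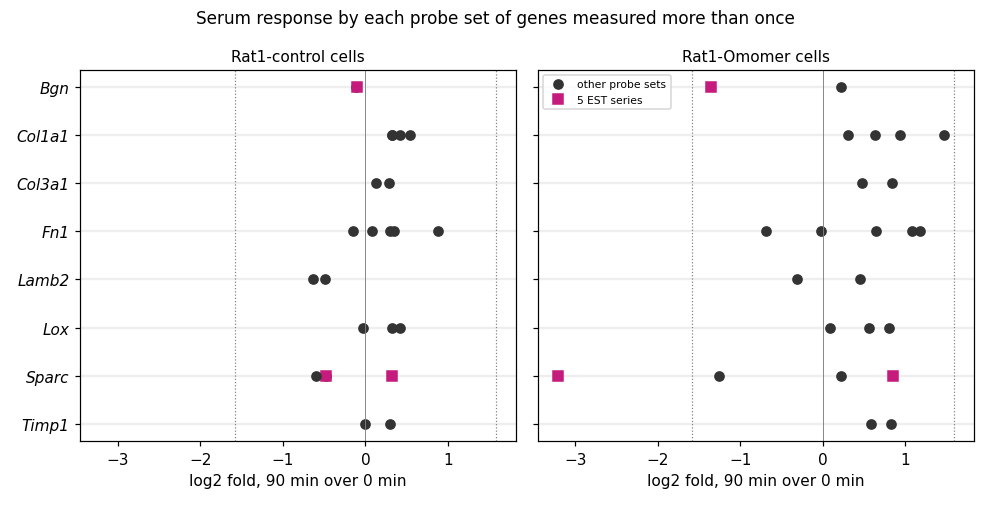
Log2 fold of 90 min over 0 min in Rat1-control (left) and Rat1-Omomer cells (right) for the 8 matrix genes with at least 2 probe sets that exceeded the floor on every array, 1 symbol per probe set (1 array per condition; pink squares, 5 EST series; dotted lines, 3-fold). Except for Timp1, the symbols of a gene lie closer together on the left than on the right. On the right, Sparc reaches from -3.21 to 0.85 and Fn1 from -0.69 to 1.17. The 2 symbols of Bgn coincide on the left.

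Fibrillar collagens, the tensile fibers of the matrix, had high signals and small differences in Rat1-control cells. All 10 probe sets with a fold were higher at 90 min than at 0 min, with a median log2 fold of 0.31, a minimum of 0.09 and a maximum of 0.80, but after quantile normalization 7 were higher, 2 lower and 1 the same, with a median of 0.06. Col1a1 encodes the main chain of type I collagen. By its brightest probe set it was 54157 in starved Rat1-control and 52996 in starved Rat1-Omomer cells, and 67837 and 100987 at 90 min. The serum fold was 1.25 in Rat1-control cells and 1.91 in the Omomer line, and 1.04 and 1.07 after quantile normalization. A probe set of the same source sequence gave 52508, 58479, 70072 and 90554, in the order Rat1-control and Rat1-Omomer at 0 min, then at 90 min. M27207mRNA_s_at gave 61575, 56816, 76954 and 69966, and rc_AI231472_s_at 26428, 22839, 38442 and 63124. These 3 had serum folds between 1.23 and 2.76 in Rat1-Omomer cells, and after quantile normalization between 1.38-fold lower and 2.01-fold higher. Col3a1, the chain of type III collagen, was 45774, 42776, 55924 and 76265 by 1 probe set in that order. By the other it was 45767, 43960, 49897 and 61170. Both were highest on the Rat1-Omomer 90 min array, 1.36-fold and 1.23-fold above Rat1-control cells at 90 min, or 1.03-fold higher and 1.01-fold lower after quantile normalization.

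Col1a2, the second chain of type I collagen, went apart from Col1a1. Its only probe set, of the 5 EST series, was 52387 in starved Rat1-control and 50743 in starved Rat1-Omomer cells, and 55641 and 14174 at 90 min. The Rat1-Omomer 90 min array was 3.58-fold under its own 0 min array and 3.93-fold under Rat1-control cells at 90 min, or 4.73-fold and 4.05-fold after quantile normalization, while the other 3 arrays lay within 50743 to 55641. No probe set of Col1a2 outside the EST series was among the members to compare with. Col5a1 and Col5a2, chains of type V collagen that limits fibril width, differed little between the lines. Col5a1 was 5767 and 6322 at 0 min, and 10011 and 9441 at 90 min, 1.74-fold higher after serum in Rat1-control and 1.49-fold higher in Rat1-Omomer cells, and 1.77-fold and 1.56-fold after quantile normalization. Col5a2 was 44298 and 42371 at 0 min, and 52478 and 46372 at 90 min.

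Col11a1, a minor fibrillar chain known best from cartilage, had higher values in Rat1-Omomer than in Rat1-control cells at both times. By AJ005396_at it was 4290 in starved Rat1-control and 10383 in starved Rat1-Omomer cells, and 4807 and 11178 at 90 min. Both Rat1-Omomer arrays lay above both Rat1-control arrays, 2.42-fold at 0 min and 2.33-fold at 90 min. Serum folds were 1.12 and 1.08. A second probe set, U20121_at, was 792 and 1446 at 0 min, and 540 and 1041 at 90 min, above the floor on the Rat1-Omomer 0 min array only. Each line is 1 infected population, so that a difference between populations and an effect of Omomer cannot be told apart.

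Other collagens were few. Col8a1, a short-chain collagen of vessel walls, was 8432 and 5878 at 0 min, and 5325 and 8081 at 90 min. It was 1.58-fold lower after serum in Rat1-control and 1.37-fold higher in Rat1-Omomer cells. Col12a1, which decorates type I fibrils, lay between 3609 and 4470 on all arrays. Col10a1, a collagen of growth cartilage, was 2181 and 2550 at 0 min, and 2778 and 4669 at 90 min by S79214cds_s_at, whereas its other probe set was below 0 on all arrays. Col26a1 was at the floor at most, with 1049 in Rat1-control cells at 0 min. In basement membranes, sheets of type IV collagen and laminin, Col4a5 was 3073 and 4136 at 0 min, and 1587 and 1809 at 90 min, lower after serum by 1.94-fold in Rat1-control cells and 2.29-fold in the Omomer line by a probe set of the EST series. Lamb2, a laminin beta chain, was 5914 and 5436 at 0 min, and 3816 and 4366 at 90 min by 1 probe set, and 2250, 2323, 1605 and 3183 by the other. It was lower after serum by both in Rat1-control cells, 1.55-fold and 1.40-fold, and not by both in Rat1-Omomer cells. Nid1, a linker of laminin and collagen, was 990 and 1748 at 0 min, and 707 and 1864 at 90 min, above the floor in Rat1-Omomer cells only.

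**Figure D3:**
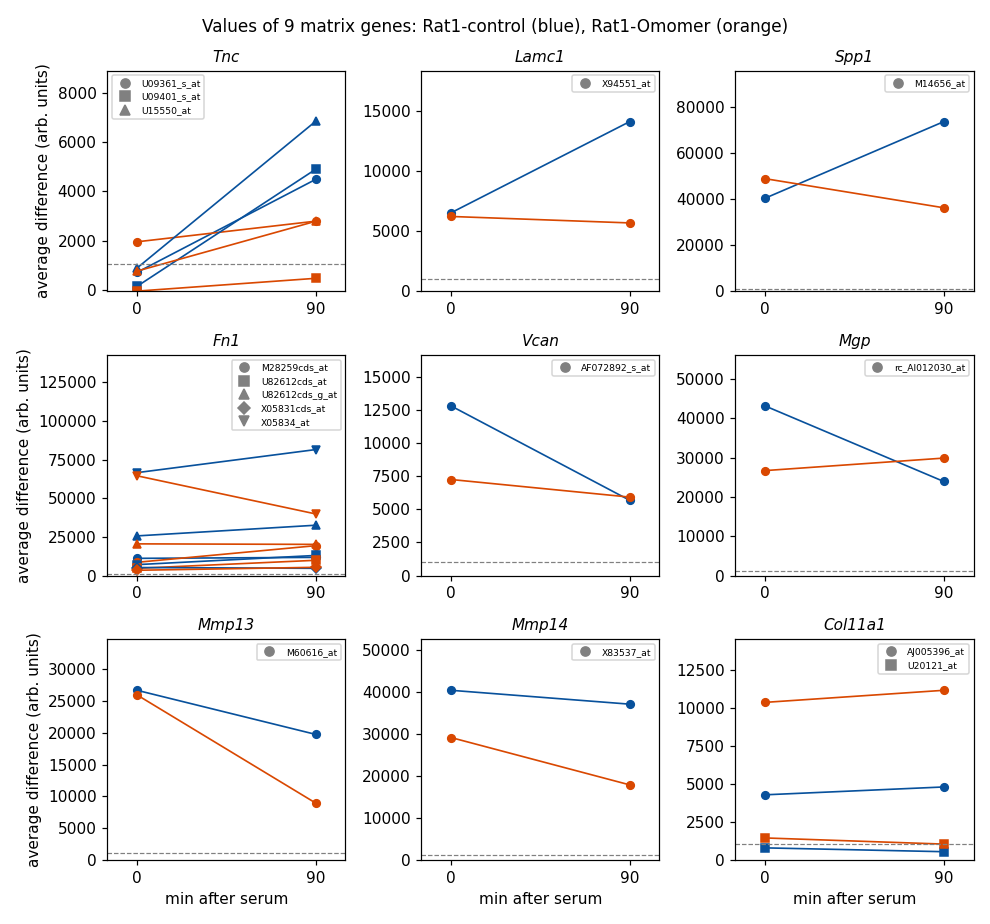
Average difference (arbitrary units, linear axis) at 0 and 90 min after serum of 9 matrix genes in Rat1-control (blue) and Rat1-Omomer cells (orange), with 1 line per probe set and cell line and 1 array per point; the dashed line is the floor. The blue lines of Tnc go up more than the orange ones. For Lamc1 and Spp1 the blue line goes up and the orange line goes down. Vcan starts at 12799 in Rat1-control cells and ends at 5682 and 5922, and the orange line of Mmp13 ends at 8948.

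Among proteoglycans, Vcan encodes versican, a large proteoglycan that swells the provisional matrix. It was 12799 in starved Rat1-control and 7249 in starved Rat1-Omomer cells, and 5682 and 5922 at 90 min. Starved Rat1-control cells stood above the other 3 arrays, so that Vcan was 2.25-fold lower after serum in Rat1-control and 1.22-fold lower in Rat1-Omomer cells. At 0 min it was 1.77-fold lower in Rat1-Omomer cells, and at 90 min the lines differed 1.04-fold. Biglycan, a small proteoglycan that binds fibrils, was, in the order Rat1-control and Rat1-Omomer at 0 min, then at 90 min, 36760, 33544, 34032 and 39170 by U17834_at, and 12130, 17074, 11275 and 6689 by a probe set of the EST series. The first kept all arrays within 33544 to 39170, and the second was 2.55-fold lower at 90 min than at 0 min in Rat1-Omomer cells. Fmod, fibromodulin of the same family, was 1495 and 1968 at 0 min, and 1993 and 715 at 90 min by rc_AI111481_s_at, at least 1.88-fold lower after serum in Rat1-Omomer cells and 1.33-fold higher in Rat1-control cells.

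Lox encodes lysyl oxidase, which crosslinks collagen and elastin. Its 3 bright probe sets lay between 24735 and 63714 over all arrays, and none differed 2-fold between any pair of arrays compared. The brightest, S66184_s_at, was 42870 and 42975 at 0 min, and 53780 and 45511 at 90 min. S77494_s_at was 32121 and 36436, then 42889 and 63714, and rc_AI234060_s_at 25881 and 24735, then 25308 and 36531, both highest on the Rat1-Omomer 90 min array. The fourth, rc_AA875582_at of the EST series, was 1155 in starved Rat1-control and 2847 in starved Rat1-Omomer cells, and 1001 and 4239 at 90 min. By this probe set Lox was higher in Rat1-Omomer cells, 2.46-fold at 0 min and at least 4.04-fold at 90 min. Mgp encodes matrix Gla protein, an inhibitor of calcification, and was 43123 and 26694 at 0 min, and 23923 and 29870 at 90 min. As with Vcan, starved Rat1-control cells had the highest value, 1.80-fold above the same cells at 90 min and 1.62-fold above starved Rat1-Omomer cells. In Rat1-Omomer cells Mgp was 1.12-fold higher after serum, but 1.11-fold lower after quantile normalization.

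Of 12 metalloproteinase genes, 6 had a probe set above the floor on at least 1 array. Mmp13 is a collagenase that cuts fibrillar collagen, and was 26672 in starved Rat1-control and 25943 in starved Rat1-Omomer cells, and 19741 and 8948 at 90 min. The Rat1-Omomer 90 min array was lowest, 2.90-fold under 0 min in the same cells, while Rat1-control cells were 1.35-fold lower after serum. Against Rat1-control cells, Mmp13 was 2.21-fold lower at 90 min in Rat1-Omomer cells. With 2.98-fold against Rat1-control cells at 0 min it lay just under the 3-fold threshold, and after quantile normalization its serum fold in Rat1-Omomer cells, 3.13-fold lower, was past it. Mmp14, a collagenase anchored in the cell membrane that activates other metalloproteinases, was 40317 and 29081 at 0 min, and 37022 and 17837 at 90 min. Both Rat1-Omomer arrays lay under both Rat1-control arrays, 1.39-fold at 0 min and 2.08-fold at 90 min.

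None of the other detected metalloproteinases met 3-fold. Mmp2, a gelatinase that Mmp14 activates, lay between 2165 and 2787 by X71466_at, and its other probe set was under the floor on all arrays. Mmp11, a protease of stroma, was 2113 and 1895 at 0 min, and 1576 and 2648 at 90 min, and Mmp7, or matrilysin, lay between 1143 and 1557. Mmp9, the other gelatinase, was 467 and 849 at 0 min, and 1274 and 2238 at 90 min. It was above the floor only after serum, at least 1.22-fold higher in Rat1-control and at least 2.14-fold in Rat1-Omomer cells. Mmp3 and Mmp10, stromelysins known to respond to growth factors, stayed under the floor on all arrays, Mmp3 at 482 to 780 and Mmp10 below 0.

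The AP-1 letters were found upstream of 5 of the 6 metalloproteinase members in the promoter table that lie together on chromosome 8 of the rat, and not upstream of Mmp8, which lies between Mmp10 and Mmp7. They are shown because this is the sequence feature that a group of members shared and that the choice of members did not use. Of 35 member promoters in the table of RefSeq starts (34 of the 49 genes), 6 held TGAGTCA or its reverse complement TGACTCA within 250 bases upstream, which is 17.1%, against 4.05% of all 33469 promoters, and the sixth was Lama3. CACGTG was in 1, that of Mmp12, which is 2.86% against 5.59%. These shares are a description, since genes of 1 cluster are related by descent. The windows of 30 bases (GRCr8, plus strand) have the AP-1 letters in capitals, and those of Mmp13, Mmp3, Mmp10, Mmp12 and Mmp7 are at chr8:12782752-12782781, chr8:12925199-12925228, chr8:12974635-12974664, chr8:12866554-12866583 and chr8:13132952-13132981.
Mmp13: accccaagtggTGACTCAtcactattgctc
Mmp3: ggaagcaattaTGAGTCAgtttgcgggtga
Mmp10: tagcacccacaTGAGTCAtgcttagtgacc
Mmp12: gacatcaacagTGAGTCAtattgaggattt
Mmp7: aagcatgagaaTGAGTCAccgattcccaca
The capitals begin 66 bases before the start in Mmp13, 71 in Mmp3, 61 in Mmp10, 87 in Mmp12 and 80 in Mmp7. Of these 5 genes Mmp13 and Mmp7 were above the floor on all 4 arrays and the other 3 on none.

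The inhibitors were bright on every array by Timp1 and Timp2. Timp1, a serum-inducible inhibitor, was 24567 and 19003 at 0 min, and 24540 and 33756 at 90 min by 1 probe set, and 18704, 14742, 22919 and 22122 by another made from the same sequence. Its serum fold was 1.78 and 1.5 in Rat1-Omomer cells, and 1.49 and 1.31 after quantile normalization. In Rat1-control cells the serum fold was 1.0 and 1.23. Timp2, which takes part in the activation of Mmp2, was 59628 and 55254 at 0 min, and 66532 and 98147 at 90 min, 1.78-fold higher after serum in Rat1-Omomer cells but 1.01-fold lower after quantile normalization. Timp3, an inhibitor bound to the matrix, was 803 and 1084 at 0 min, and 807 and 2031 at 90 min, above the floor in Rat1-Omomer cells only, as Nid1 was. All 4 inhibitor probe sets were higher after serum in Rat1-Omomer cells, 3 of the 4 after quantile normalization, and none by 3-fold.

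**Figure D4:**
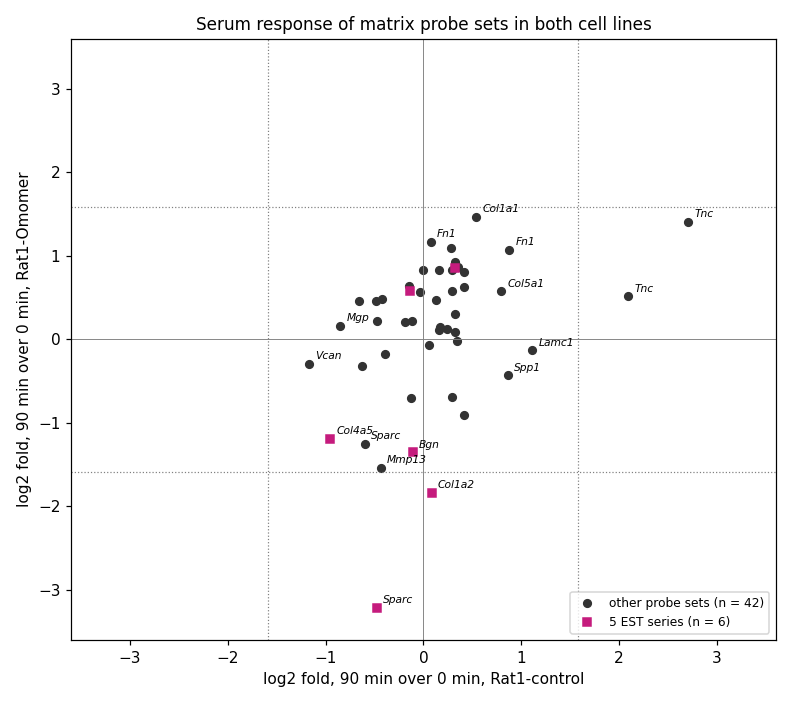
Log2 fold of 90 min over 0 min in Rat1-control cells (horizontal) against that in Rat1-Omomer cells (vertical) for the 48 matrix probe sets with a fold in both (no array is shared; black circles, other probe sets; pink squares, 5 EST series; dotted lines, 3-fold). Both Tnc points lie right of the dotted line in Rat1-control cells and under it in Rat1-Omomer cells, Lamc1 (1.11 and -0.13) and Spp1 (0.87 and -0.43) lie in the lower right, and the lowest points, Sparc and Col1a2, are pink.

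Genes that process the matrix were read from lists that share no gene with the members. Of 14 probe sets of 9 collagen processing and assembly enzymes, none met 3-fold in Rat1-control cells after serum, while 4 were lower in Rat1-Omomer cells at 90 min against their own 0 min, with a median log2 fold of 0.25 in the first and -0.21 in the second (all probe sets -0.07 and 0.09). The background of lower calls was 1.81% in the first and 9.65% in the second, and 3 of the 4 are probe sets of the EST series. Plod3, a collagen lysyl hydroxylase, was 3.82-fold and 3.75-fold lower by 2 probe sets of 1 sequence in the EST series, the first of which was under the floor with 1036 at 90 min so that its fold is a lower bound. Plod1, of the same family, was 14113 at 0 min and 3644 at 90 min, 3.87-fold lower, by a probe set outside the EST series. Loxl1, a relative of lysyl oxidase, gave a 9.0-fold lower value by rc_AA800844_s_at and 1.02-fold by rc_AA859805_at, both of the EST series. Of 15 probe sets with a fold for matrix signals and their targets, none passed 3-fold in Rat1-control cells after serum. In Rat1-Omomer cells 2 were higher and 2 lower at 90 min against 0 min (background 2.9% and 9.65%), with a median log2 fold of 0.49 (all probe sets 0.09). Between the lines at 90 min 0 were higher and 2 lower (background 2.22% and 8.57%), those of Ltbp1 and Ccn1. The median there was 0.58 (all 0.18), so that these 2 went against most of the list. Ltbp1, which stores TGF-beta in the matrix, was 4153 and 12115 in Rat1-control and 6171 and 1416 in Rat1-Omomer cells at 0 and 90 min, 8.56-fold lower in Rat1-Omomer cells at 90 min. Ccn1, a matrix-bound ligand of integrins, was 16039 and 30255 in Rat1-control and 10232 and 3500 in Rat1-Omomer cells at these times, 8.64-fold lower in the latter at 90 min by a probe set of the EST series. Tgfb3, a TGF-beta ligand that drives collagen genes, was at least 3.93-fold higher after serum in Rat1-Omomer cells by 1 probe set and 1.33-fold by another of the same source sequence. Of 18 probe sets of other pericellular proteases and inhibitors, only Plaur, the urokinase receptor, passed 3-fold after serum, in Rat1-control cells (background 1.93% higher). It was -663 and 26308 in Rat1-control and 209 and 2431 in Rat1-Omomer cells at 0 and 90 min, at least 25.1-fold higher after serum in the first and at least 2.32-fold in the second, and 10.8-fold lower in Rat1-Omomer cells at 90 min.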

How the data were processed

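RNA of the 4 cultures was hybridized to Affymetrix rat genome arrays, 1 per condition. The deposited values are intensities, average differences computed by the authors with MAS 4 at default settings, linear, with negative values kept and with nearly equal trimmed means. Of 8799 probe sets, 59 AFFX controls were left out. Symbols came from the platform annotation, and all 49 member genes had the same symbol in RefSeq by gene ID. The noise SD was the scaled median absolute value of all negative values, 524, and the floor 2 times this. Folds are ratios of floored values, fitted to no model. With 1 array per condition there was no test, and their number limits the precision. Members, gene lists, motifs and the rule for named genes (every member by name, with all values for called genes and the 6 brightest) were chosen with earlier results of these data known. Genes that are no member were limited to the largest folds of each list. Alternatives were floors of 524 and 2096, each array's own floor, quantile normalization, scaling to equal medians, folds only where both values exceeded the floor, 1 probe set per gene, and leaving out the EST series. The calling rule was checked on simulated data with known folds, planted only in probe sets with a mean well above the floor. This check does not cover calls with a value at the floor, such as those of Tnc and Lox. Nor was it shown to cover the Sparc and Col1a2 calls, which rest on the Rat1-Omomer array after serum. For serum in Rat1-Omomer cells the SD of log2 folds within a gene was 0.71 over all genes. For serum in Rat1-control cells it was 0.32. Python 3.11.15, numpy 2.4.6, pandas 2.3.3, scipy 1.17.1 and matplotlib 3.10.9 were used. RefSeq promoters are of GRCr8.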

Additional observations from a re-analysis of the deposited data

Results flagged for a closer look

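The probe set rc_AI111481_s_at of Fmod, fibromodulin, had a log2 fold after serum of 0.41 in Rat1-control and of -0.91 in Rat1-Omomer cells. It was flagged because the folds go opposite ways and each is larger than the SD of log2 folds between probe sets of 1 gene in its own comparison, 0.32 and 0.71 over all genes. Over the member genes alone that SD is 0.94 in Rat1-Omomer cells, above the size of this fold, and with each array's own floor the fold is -0.68, which no longer exceeds 0.71 in size. The difference was not tested, and its value at 90 min in Rat1-Omomer cells, 715, is under the floor. The second probe set of Fmod lay near or under the floor on all arrays, at 48 to 1095.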

How the results depend on the processing

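No paired analysis was possible because each condition had 1 array. Counts and medians of the members were computed under 8 alternatives, and 94 values stayed within 1.5 times the count or 0.1 of the median while 26 did not. The cause was not tested. For serum in Rat1-control cells, higher probe sets numbered 1 at a floor of 2096, 0 with both values above the floor and 1 with 1 probe set per gene, and the median was 0.24 with median scaling and 0.022 with quantile normalization. For serum in Rat1-Omomer cells, 1 was higher at a floor of 524, lower ones were 1 with 1 probe set per gene and 0 without the EST series, and the median was 0.10 with quantile normalization. For Rat1-Omomer against Rat1-control cells at 90 min, higher ones were 0 at a floor of 2096, with both values above the floor, with 1 probe set per gene and without the EST series, lower ones were 1 in the last 2 settings, and the median was 0.075 with quantile normalization. For Rat1-Omomer cells at 90 min against Rat1-control cells at 0 min, higher ones were 4 at a floor of 524, 0 at 2096, 3 at each array's own floor, 0 with 1 probe set per gene and 0 without the EST series, lower ones were 1 and 0 in the last 2 settings, and the median was 0.10 with quantile normalization, 0.076 with 1 probe set per gene and 0.33 without the EST series. The called folds were followed under all alternatives except 1 probe set per gene and leaving out the EST series. Of the values obtained, 62 stayed past 3-fold and 5, of Tnc and Lox at a floor of 2096, did not, and 0 changed direction. Where both values had to exceed the floor, the Tnc folds for serum in Rat1-control cells had no value and were not counted. The same holds for the called folds of Tnc and Lox between the lines at 90 min. Leaving out an array was not possible. Signal over background limits Tnc, Nid1, Mmp9, Timp3, Fmod, Col26a1, the probe set U20121_at of Col11a1 and the fourth probe set of Lox. All of these were under the floor on at least 1 array and above it on at least 1.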
